A study of Homo sapiens with 8 samples.

Results

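The genes described here make, desaturate, elongate and activate fatty acids. There were 10 of them among the 58884 genes of the table: ACACA, FASN, SCD, FADS1, FADS2, ELOVL5, ELOVL6, ELOVL7, SREBF1 and ACSL3, each found in the table by its symbol. C4-2, an established line of castration-resistant prostate cancer derived from LNCaP, had been given 1 µM DTHIB (E12), which the labels call a direct inhibitor of the heat shock factor HSF1, or the solvent DMSO. Both groups grew in RPMI 1640 with 10% FBS, were treated for 48 h and had 4 sequenced libraries of poly(A) RNA each. The comparison asks how the transcripts of these cells differ under the compound. Nothing in the labels says that the 4 libraries of a group came from separate cultures, so p-values measure only how far these samples scatter, which may be technical scatter.

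As background, de novo lipogenesis starts with acetyl-CoA, which acetyl-CoA carboxylase turns into malonyl-CoA and fatty acid synthase builds into palmitate. Elongases lengthen the chain, desaturases put double bonds in it, and acyl-CoA synthetases activate it for use in membranes and stores. The transcription factor SREBP-1, made from SREBF1, switches on most of these genes when it is released from the endoplasmic reticulum, and prostate cancer cells are known for an active form of this pathway.

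In DTHIB-treated cells, 7 of the 10 genes fell and none rose. The desaturases FADS2 and FADS1 fell most, to 37.5% and 44.3% of their DMSO means, followed by the elongase ELOVL6 at 54.1%. SCD, SREBF1 and ACSL3 fell to between 63.5% and 70.7% and FASN to 80.5%. The elongases ELOVL5 and ELOVL7 differed by less than the spread between libraries, and ACACA could not be read because its counts varied more than 3.8-fold within each group. A gene is said to have fallen or risen where limma's Benjamini-Hochberg adjusted p over all 17194 tested genes was under 0.05. Many genes met that: 33.7% of tested genes fell, 31.0% rose, and 64.6% changed in either direction, so the 7 falls are to be read against that background. The same 7 genes had DTHIB values wholly below the DMSO values, which held for 30.8% of tested genes, and 57.9% had groups that did not overlap in either direction. The median log2 fold change of the 10 genes was -0.54, against -0.01 over all tested genes. Under quantile normalization, ELOVL7 counted as higher (0.06 on the log2 scale, limma adjusted p = 0.0358), which made 7 lower and 1 higher.

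**Figure D1:**
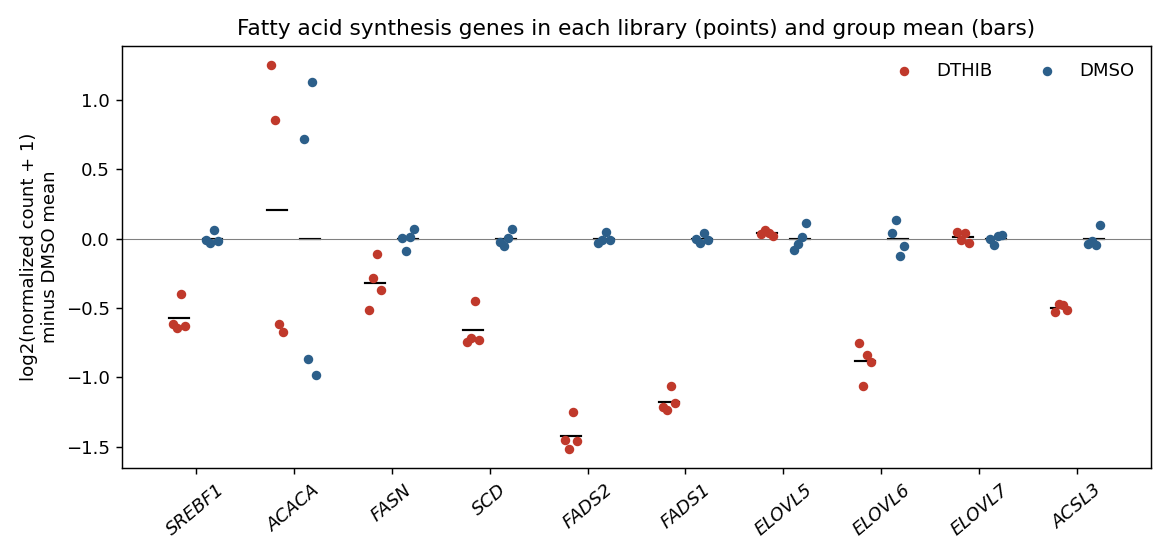
Each of the 10 genes in each of the 8 libraries, as log2(normalized count + 1) minus the gene's DMSO mean (y axis), with DTHIB in red, DMSO in blue and bars for group means. The 7 genes that fell have DTHIB points wholly below the DMSO points, while the ACACA points of both groups are spread widely and overlap.

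If the smallest step of each column stands for 1 read, the reads counted in genes were 27229291 to 29159387 in DTHIB libraries. In DMSO libraries they were then 29499458 to 30926053. This could not be established for 3 columns, among them DTHIB replicate 3 (29159387) and DMSO replicate 4 (29499458). All 10 luminal prostate markers that were looked up (among them KLK3 and KRT8) were tested, 7 of them higher and 3 lower, with summed normalized counts of 309799 to 313432 in DTHIB and 247787 to 252601 in DMSO. Of 5 basal markers 2 could be tested (1 lower), with sums of 26.0 to 33.3 in DTHIB and 36.1 to 54.0 in DMSO. Of 7 blood cell markers 2 could be tested (1 lower), with sums of 23.9 to 41.9 in DTHIB and 28.0 to 44.1 in DMSO, and HBB was at 0. Of 7 stromal markers 3 could be tested (1 higher, 1 lower), with sums of 1262 to 1502 in DTHIB and 1044 to 1156 in DMSO. Most of the stromal sum was the collagen gene COL1A1, which averaged 1290 ± 102 normalized counts in DTHIB and 962 ± 39.2 in DMSO (SD, n = 4 each) and rose by 0.42 on the log2 scale. Of 6 adipocyte markers 2 could be tested (LPL lower, and PLIN1 higher with an adjusted p of 0.0418 that was lost in 9 of the alternative fits), with sums of 441 to 502 in DTHIB and 806 to 927 in DMSO, while ADIPOQ and LEP were at 0 in every library. The part of these markers in the results was not tested. In bulk RNA, fewer cells of a type and less RNA per cell cannot be told apart, and a normalized count is a share of the library.

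The regulator SREBF1 (ENSG00000072310, chromosome 17, 17810399 to 17837002, minus strand, positions from GENCODE 29 on GRCh38 here and below) encodes SREBP-1. Its normalized counts, in which the authors scaled each library by its own factor, were 10848, 10611, 12590 and 10720 in DTHIB, against 16482, 16244, 17313 and 16443 in DMSO. The groups did not overlap, and DTHIB replicate 3 was the highest of its group. SREBF1 fell by 0.57 on the log2 scale (SE 0.044, limma adjusted p = 5.34e-09). SREBF1 shares 556 exonic bases with RAI1 on the opposite strand, and whether reads were counted by strand was not stated in the sources at hand.

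SREBF2, which encodes the sterol-gene factor SREBP-2, moved the other way. It averaged 11966 ± 394 normalized counts in DTHIB and 10511 ± 354 in DMSO (SD, n = 4 each) and rose by 0.19 in log2 terms (SE 0.032; limma adjusted p = 6.16e-05). The log2 ratio of SREBF1 to SREBF2 within a library averaged -0.10 ± 0.083 in DTHIB and 0.66 ± 0.036 in DMSO (SD, n = 4 each). The difference of -0.76 (SE 0.045) gave an exact two-sided permutation p of 0.0286, the smallest that 4 against 4 libraries can give. Adjusted over the 6 ratios compared, this became 0.0429, and the same value applies to each ratio below that passed.

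ACACA (ENSG00000278540, chromosome 17, 37084988 to 37406818, minus strand) encodes acetyl-CoA carboxylase 1, which makes malonyl-CoA. It had 1545, 1176, 422 and 406 normalized counts in DTHIB, against 1070, 355, 1418 and 328 in DMSO. In each group 2 libraries were high and the other 2 low, so that the groups overlapped throughout. Its log2 fold change was 0.20, with a 95% interval of -0.73 to 1.14 (limma adjusted p = 0.702), and its sign turned negative in the fits without DMSO replicate 2 or 4 or DTHIB replicate 1 or 2 (-0.14 to 0.58 over the settings tried). The within-group SD on the log2 scale was 1.04 for ACACA, and 0.035 to 0.13 for the other 9 genes. Of 9784 genes with a mean of at least 300 normalized counts, 8 had a within-group spread as large, ACACA included.

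ACACA was the 1 gene of the 10 with transcripts that GENCODE 29 also places outside the primary assembly, a trait of 452 of the 17194 tested genes. Of 12 tested genes within 1 Mb of it, itself included, 10 had such transcripts, and the within-group SDs ran between 0.27 and 2.29 with a median of 0.67. The 2 neighbours without such transcripts, both named NPEPPSP1, had SDs of 0.54 and 0.70, within that range. Their normalized counts were only 6.01 to 31.3, so these SDs cannot be set beside that of ACACA. Most of the 12 had fewer counts than ACACA. Across the genome, 202 genes with such transcripts and a mean of at least 300 had a median SD of 0.063, against 0.056 for the other 9582 genes at that level. How the authors' alignment placed reads between such copies was not stated in the sources at hand, and its part in the ACACA counts was not tested. The paralogue ACACB, which makes malonyl-CoA at mitochondria, had 574 ± 24.1 normalized counts in DTHIB and 602 ± 34.1 in DMSO (SD, n = 4 each) and did not pass (log2 fold change -0.07, limma adjusted p = 0.263).

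**Figure D2:**
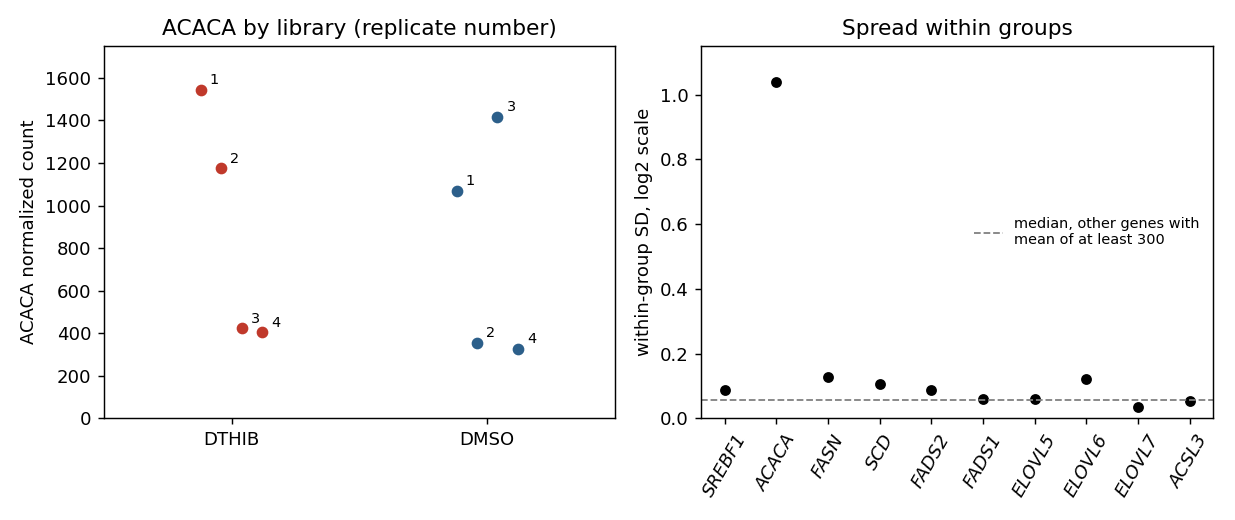
Left, ACACA normalized counts (y axis) in the 4 DTHIB and 4 DMSO libraries, with replicate numbers beside the points. Right, the within-group SD on the log2 scale for each of the 10 genes, where ACACA lies at 1.04 and the dashed line marks the median of 0.056 for other genes.

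FASN (ENSG00000169710, chromosome 17, 82078333 to 82098332, minus strand) encodes fatty acid synthase, which makes palmitate. It had 35893, 42058, 47346 and 39717 normalized counts in DTHIB, against 51489, 48146, 51553 and 53849 in DMSO. Every DTHIB library was below every DMSO library, but the highest DTHIB value, in replicate 3, came close to the lowest DMSO value. FASN fell by 0.32 on the log2 scale (SE 0.059, limma adjusted p = 0.000161), and by 0.39 without DTHIB replicate 3.

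The ratio of FASN to ACACA could not be read, since ACACA varied as described (difference -0.52, SE 0.77, exact permutation p = 0.486). With the citrate-cleaving enzyme ACLY in place of ACACA, a choice made after the values were seen, the log2 ratio averaged 1.24 ± 0.16 in DTHIB and 1.48 ± 0.042 in DMSO (SD, n = 4 each; exact permutation p = 0.0286, not adjusted). ACLY itself averaged 17344 ± 323 normalized counts in DTHIB and 18368 ± 520 in DMSO. Its log2 fold change of -0.08 (limma adjusted p = 0.0166) did not pass without DMSO replicate 1 (adjusted p = 0.0596), DMSO replicate 3 (0.0552) or DTHIB replicate 4 (0.0555).

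SCD (ENSG00000099194, chromosome 10, 100347124 to 100364834, plus strand) encodes stearoyl-CoA desaturase, which puts the first double bond into palmitate and stearate. It had 16639, 16966, 20354 and 16761 normalized counts in DTHIB, against 27405, 26825, 27981 and 29241 in DMSO. The groups were far apart, and DTHIB replicate 3 again stood above the other DTHIB libraries. SCD fell by 0.66 on the log2 scale (SE 0.051, limma adjusted p = 5.47e-09). It fell by more than FASN: the log2 ratio of SCD to FASN averaged -1.22 ± 0.084 in DTHIB and -0.88 ± 0.027 in DMSO (SD, n = 4 each), a difference of -0.34 (SE 0.044, exact permutation p = 0.0286). The second stearoyl-CoA desaturase gene, SCD5, did not pass (log2 fold change -0.17, limma adjusted p = 0.103), except under quantile normalization (-0.25, adjusted p = 0.0297).

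FADS2 and FADS1 encode the delta-6 and delta-5 desaturases, which convert dietary linoleic and alpha-linolenic acid toward arachidonic and eicosapentaenoic acid. FADS2 (ENSG00000134824, chromosome 11, 61792980 to 61867354, plus strand) had 15259, 14612, 17616 and 15167 normalized counts in DTHIB, against 40951, 41572, 43258 and 41475 in DMSO. FADS1 (ENSG00000149485, chromosome 11, 61799625 to 61829318, minus strand) had 5330, 5247, 5914 and 5430 in DTHIB, against 12347, 12127, 12732 and 12260 in DMSO. In both genes the lowest DMSO value was more than 2 times the highest DTHIB value, and DTHIB replicate 3 was the highest of its group.

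FADS2 fell by 1.42 on the log2 scale (SE 0.044, limma adjusted p = 4.29e-14) and FADS1 by 1.18 (SE 0.035, limma adjusted p = 2.34e-14). A fall of at least 1 on the log2 scale that passed the test was found in 4.36% of tested genes. The log2 ratio of FADS2 to FADS1 averaged 1.51 ± 0.045 in DTHIB and 1.76 ± 0.020 in DMSO (SD, n = 4 each), a difference of -0.24 (SE 0.025, exact permutation p = 0.0286), so FADS2 fell by more than FADS1. The annotated exons of these genes share 490 bases on opposite strands, and reads there may have been assigned to either gene.

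Of the genes around the FADS locus, 5 of 7 rose and 1 fell, against 31.0% higher and 33.7% lower over all tested genes. The flap endonuclease FEN1, a replication gene whose exons share 49 bases with FADS2, averaged 1302 ± 76.1 normalized counts in DTHIB and 4812 ± 145 in DMSO (SD, n = 4 each), a log2 fold change of -1.89. FADS3, the third gene of the desaturase cluster, averaged 1057 ± 63.2 in DTHIB and 739 ± 30.7 in DMSO and rose by 0.52 on the log2 scale (limma adjusted p = 8.56e-08). The ferritin heavy chain FTH1 (0.64), BEST1 (1.76), RAB3IL1 (0.39) and TMEM258 (0.14) rose, and MYRF (0.12) did not pass. BEST1 shares 1267 exonic bases with the far more abundant FTH1 on the opposite strand, so its rise is uncertain.

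The upstream sequences of FADS1, FADS2, SCD and ELOVL5 are shown because the first 3 genes fell together and ELOVL5 did not change beyond its spread. They are the 250 bases before a RefSeq gene start on GRCh38.p14, written 5′ to 3′ on the gene's strand, and capitals mark matches on either strand to any of 5 searched motifs. The motifs were the sterol regulatory element TCACNCCAC, the E-box CACGTG, the CCAAT box CCAAT, the GC box GGGCGG and GAANNTTC, a short core of the heat shock element. FADS1 is at chr11:61817004-61817253 (minus strand), the second FADS2 start at chr11:61816154-61816403 (plus), SCD at chr10:100346983-100347232 (plus) and ELOVL5 at chr6:53348951-53349200 (minus).
FADS1: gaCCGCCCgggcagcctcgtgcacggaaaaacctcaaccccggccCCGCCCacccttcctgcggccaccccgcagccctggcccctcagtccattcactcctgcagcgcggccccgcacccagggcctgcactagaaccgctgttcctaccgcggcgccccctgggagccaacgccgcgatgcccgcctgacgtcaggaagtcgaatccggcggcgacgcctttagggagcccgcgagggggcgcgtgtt
FADS2: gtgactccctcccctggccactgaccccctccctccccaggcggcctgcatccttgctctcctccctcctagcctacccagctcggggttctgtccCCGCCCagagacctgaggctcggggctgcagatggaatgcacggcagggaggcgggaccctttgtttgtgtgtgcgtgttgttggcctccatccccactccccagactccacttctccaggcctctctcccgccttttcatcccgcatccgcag
SCD: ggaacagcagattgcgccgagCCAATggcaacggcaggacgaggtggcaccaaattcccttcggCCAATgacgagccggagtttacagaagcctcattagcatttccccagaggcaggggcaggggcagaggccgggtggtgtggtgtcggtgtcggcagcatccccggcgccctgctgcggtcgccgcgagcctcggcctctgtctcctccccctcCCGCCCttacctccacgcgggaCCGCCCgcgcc
ELOVL5: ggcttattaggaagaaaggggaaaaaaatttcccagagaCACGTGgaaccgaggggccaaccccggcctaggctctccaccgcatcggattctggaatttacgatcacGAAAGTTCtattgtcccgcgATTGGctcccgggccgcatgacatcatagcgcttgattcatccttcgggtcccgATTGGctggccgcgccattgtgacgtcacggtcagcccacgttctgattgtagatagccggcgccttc

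The promoter table held 12 starts for 9 of the 10 genes and none for FASN. The letters of the sterol regulatory element were in none of these 12 windows, and in 0.883% of the 35116 windows of this length searched across all genes. CCAAT boxes, found in 32.0% of all windows, stood in 5 of the 12 windows, those of genes that fell and of genes that did not: SCD held 2 (229 and 186 bases before the start), ELOVL5 held 2 (122 and 68), and ACSL3 and a pair of the ACACA windows held others. The heat shock core letters GAANNTTC stood once, in the ELOVL5 window, 142 bases before its start (5.78% of all windows). The E-box also stood in that window (6.34% of all windows). A match to so short a pattern does not show an HSF1 site. GC boxes, found in 42.6% of all windows, stood in 9 of the 12 windows and in 8 of the 9 genes, ELOVL7 and ACACA included. They were absent from ELOVL5, the first FADS2 start and the third ACACA start. The FADS1 start and the second FADS2 start lie 599 bases apart.

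The elongases that were looked at behaved differently from one another. ELOVL6 (ENSG00000170522, chromosome 4, 110045846 to 110199199, minus strand) extends palmitate to stearate. It had 357, 288, 336 and 325 normalized counts in DTHIB, against 618, 662, 552 and 581 in DMSO, with no overlap. It fell by 0.88 on the log2 scale (SE 0.072, limma adjusted p = 1.08e-08).

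ELOVL5 (ENSG00000012660, chromosome 6, 53267398 to 53349179, minus strand) extends polyunsaturated chains made by the FADS desaturases. It had 54539, 55876, 54821 and 54034 normalized counts in DTHIB, against 50414, 52059, 53764 and 57673 in DMSO, with all DTHIB values inside the DMSO range. Its log2 fold change was 0.04, with a 95% interval of -0.04 to 0.11 (limma adjusted p = 0.374).

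ELOVL7 (ENSG00000164181, chromosome 5, 60751791 to 60844389, minus strand) extends saturated very-long chains. It had 11024, 10592, 10999 and 10445 normalized counts in DTHIB, against 10669, 10357, 10803 and 10873 in DMSO, and the groups overlapped. Its log2 fold change was 0.01, with a 95% interval of -0.05 to 0.07 (limma adjusted p = 0.729). The log2 ratio of ELOVL6 to ELOVL5 averaged -7.39 ± 0.15 in DTHIB and -6.47 ± 0.17 in DMSO (SD, n = 4 each), a difference of -0.92 (SE 0.11, exact permutation p = 0.0286). That of ELOVL7 to ELOVL5 averaged -2.35 ± 0.044 in DTHIB and -2.32 ± 0.068 in DMSO, a difference of -0.03 (SE 0.041, exact permutation p = 0.629) that did not pass.

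**Figure D3:**
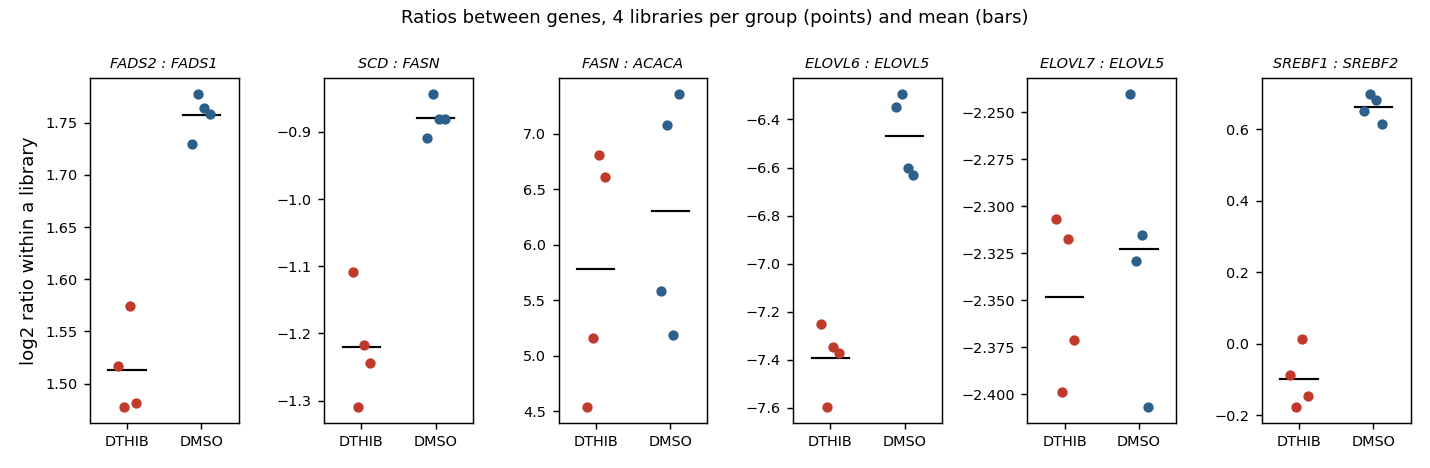
Log2 ratio of the first to the second gene within each library (y axis, a separate scale per panel), with 4 DTHIB points left of 4 DMSO points and bars for means. The groups do not overlap for FADS2 to FADS1, SCD to FASN, ELOVL6 to ELOVL5 and SREBF1 to SREBF2, and they overlap for the ratios of FASN to ACACA and of ELOVL7 to ELOVL5.

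ACSL3 (ENSG00000123983, chromosome 2, 222860934 to 222944639, plus strand) encodes an acyl-CoA synthetase of the endoplasmic reticulum and lipid droplets. It had 29467, 30656, 30501 and 29682 normalized counts in DTHIB, against 41326, 42005, 41227 and 45569 in DMSO. The DTHIB values lay close together and far below the lowest DMSO value. ACSL3 fell by 0.50 on the log2 scale (SE 0.033, limma adjusted p = 7.76e-10). It shares 102 exonic bases with its antisense gene ACSL3-AS1.

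Per kilobase of annotated exon, ELOVL5 had the highest level of the 10 genes in both groups, 14377 ± 204 normalized counts per kb in DTHIB and 14025 ± 817 in DMSO (SD, n = 4 each). In DTHIB the order then ran FASN (4406 ± 512) and ACSL3 (4154 ± 81.5), which overlapped, SCD (3297 ± 333), ELOVL7 (2352 ± 63.6), FADS2 (1421 ± 121) and SREBF1 (1394 ± 117), which overlapped, and FADS1 (536 ± 29.2). In DMSO it ran ACSL3 (5875 ± 284), FASN (5474 ± 251) and SCD (5196 ± 193), each overlapping the next, then FADS2 (3792 ± 90.8), ELOVL7 (2333 ± 49.9), SREBF1 (2070 ± 58.9) and FADS1 (1209 ± 25.4). FADS2 stood above ELOVL7 in every DMSO library and below it in every DTHIB library. ACACA and ELOVL6 were lowest in both groups, and overlapped each other. Since ACACA counts varied widely within each group, as described, its level and place in this order are uncertain.

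**Figure D4:**
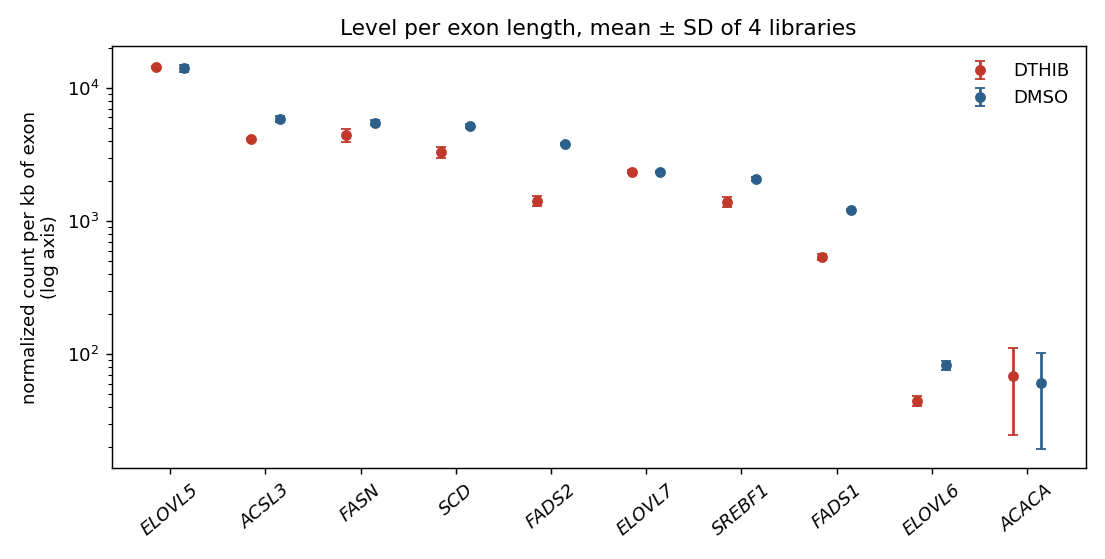
Normalized count per kb of annotated exon (log axis) for the 10 genes, mean ± SD of 4 libraries, with DTHIB in red left of DMSO in blue and genes ordered by the DMSO mean. ELOVL5 is highest in both groups, and FADS2 is above ELOVL7 in DMSO and below it in DTHIB.

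FASN, SCD, FADS1, FADS2 and SREBF1, 5 of the 10 genes, had their highest DTHIB value in replicate 3. Without that library the falls on the log2 scale were 0.39 for FASN, 0.73 for SCD, 1.21 for FADS1, 1.48 for FADS2 and 0.63 for SREBF1. INSIG1, which holds SREBP in the endoplasmic reticulum and is itself an SREBP target, was also highest there, with 3951, 3734, 4671 and 3850 normalized counts in DTHIB, against 9648, 8895, 9965 and 9410 in DMSO. Over all tested genes too, DTHIB replicate 3 lay nearest to each DMSO library, with chi-square statistics per gene of 51.7 to 57.6. Those of DTHIB replicate 1, the next nearest, were 54.0 to 59.9. Both take the smallest step of each column as 1 read. That could not be established for 3 columns, DTHIB replicate 3 among them. Whether the genes named here lay nearer to DMSO in this library than other genes did was not tested. How many of all tested genes were highest in this replicate was not counted. What set DTHIB replicate 3 apart was not tested.

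The authors' deposited table gave log2 fold changes with the same sign for all 10 genes. They were -1.40 for FADS2, -1.17 for FADS1, -0.87 for ELOVL6, -0.65 for SCD and 0.07 for ACACA, whose adjusted p in the authors' deposited table was 0.882.

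A wider list of 39 genes for synthesis, desaturation, elongation and activation, which contains 9 of the 10, had 35 tested members, of which 23 fell and 5 rose, and their median was -0.28 on the log2 scale. Apart from the 9, 17 of 26 tested members fell and 5 rose, with a median of -0.25, against 33.7% lower and 31.0% higher over all genes. Those 17 include ACSL5, THRSP and ELOVL3, whose DTHIB means were under the filter of 10 and whose DMSO means carried them over it. FADS6, HACD4 and OLAH had higher means in DTHIB than in DMSO but were not tested, as their means over all libraries were under 10. In the whole list, with the 9 kept in it, 20 genes fell and 5 rose when a mean of at least 50 was required. ELOVL2, which extends long polyunsaturated chains, averaged 1198 ± 77.3 normalized counts in DTHIB and 2031 ± 63.3 in DMSO (SD, n = 4 each) and fell by 0.76 on the log2 scale (limma adjusted p = 1.28e-10). ELOVL4 (-0.53) fell too, and ELOVL1 (-0.10) fell except under quantile normalization, where its adjusted p was 0.895. The citrate carrier SLC25A1 (-0.30), the acetyl-CoA synthetase ACSS2 (-0.42) and the acyl-CoA synthetases ACSL1 (-0.41) and ACSL4 (-0.36) fell. The lipogenic cofactor THRSP (-2.11) and ACSL5 (-2.40) fell at low levels, with means under 30 normalized counts in both groups, and MID1IP1, which helps acetyl-CoA carboxylase polymerize, rose (0.29). HSD17B12, the ketoreductase of the elongation cycle, rose by 0.13 (limma adjusted p = 0.0489), a call lost without DMSO replicate 1, 3 or 4 or DTHIB replicate 1, 3 or 4, without the filter on low values and with the replicate block.

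Of 26 SREBP processing genes and transcription partners, 12 fell and 7 rose (list median -0.05, log2), or 9 and 11 under quantile normalization. These are 46.2% lower and 26.9% higher, against 33.7% and 31.0% of all tested genes. INSIG1 fell by 1.23 on the log2 scale (SE 0.054, limma adjusted p = 3.2e-12), the phosphatidate phosphatase LPIN1 by 0.70 and the CCAAT-binding subunit NFYB by 0.64. The carbohydrate-sensing factor MLXIPL rose (0.61), and the SREBP escort protein SCAP did not pass (0.03), except under quantile normalization (0.12, limma adjusted p = 0.00158). Of 8 AMPK subunits and upstream kinases, which act on acetyl-CoA carboxylase, 4 fell and 3 rose (87.5% changed, against 64.6% of all tested genes; median -0.08), with CAMKK2 at -0.42, PRKAG2 at -0.21, PRKAA1 at 0.23 and PRKAB1 at 0.55.

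Of 12 tested NADPH-supplying genes, 7 rose and 4 fell (list median 0.25, log2). The share that rose was 58.3%, against 31.0% of all tested genes, and the share that fell was 33.3%, near the 33.7% of all. The mitochondrial folate enzyme ALDH1L2 averaged 1077 ± 68.8 normalized counts in DTHIB and 423 ± 13.4 in DMSO (SD, n = 4 each) and rose by 1.35 on the log2 scale. The cytosolic dehydrogenases IDH1 (0.49) and ME1 (0.27) rose, while IDH2 (-0.68) and MTHFD1 (-0.61) fell.

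Of 30 fatty acid oxidation genes, 14 fell and 11 rose (list median -0.03, log2), shares of 46.7% and 36.7% against 33.7% and 31.0% of all tested genes. ACAA2 (-0.57), the acylcarnitine carrier SLC25A20 (-0.43), ECHS1 (-0.40), the nuclear receptor PPARD (-0.35) and the entry enzyme CPT1A (-0.13) fell. Its paralogues CPT1B (0.80) and CPT1C (0.34), the peroxisomal oxidase ACOX3 (0.44) and the nuclear receptor PPARA (0.26) rose. CPT1B shares 2722 of its 4102 exonic bases with CHKB-CPT1B on the same strand, so its rise is uncertain. Of 12 tested genes of fatty acid and lipoprotein uptake, 6 fell and 3 rose (list median -0.16, log2), against 33.7% lower and 31.0% higher over all tested genes. MFSD2A, a carrier of lysophospholipids with polyunsaturated chains (-1.07), and lipoprotein lipase LPL (-0.92) fell, and LRP1 rose (1.39).

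Of 24 tested genes of glycerolipid synthesis and lipid droplets, 9 fell and 5 rose (list median -0.09, log2). The share changed, 58.3%, was near the 64.6% of all tested genes. Their values on the log2 scale included MOGAT2 at -1.01, LPIN1 at -0.70, AGPAT2 at 0.56 and the droplet coat gene PLIN4 at 1.19. Of 18 tested genes that incorporate or oxidize polyunsaturated chains, 8 fell and 4 rose (median -0.16), and the 66.7% that changed was also near 64.6%, with the cyclooxygenase PTGS1 at -1.38, LPCAT3 at -0.30, the lipoxygenase ALOX15 at -0.18 and the phospholipase PLA2G6 at 0.68. LPCAT3 shares 3100 exonic bases with EMG1, and PLA2G6 1518 with an antisense gene, both on the opposite strand. PTGES, among the 8 that fell, averaged 6.1 normalized counts in DTHIB and 14.5 in DMSO, and passed the filter of 10 only through DMSO. PLIN1, among the 5 glycerolipid and droplet genes that rose, passed it only through DTHIB.

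**Figure D5:**
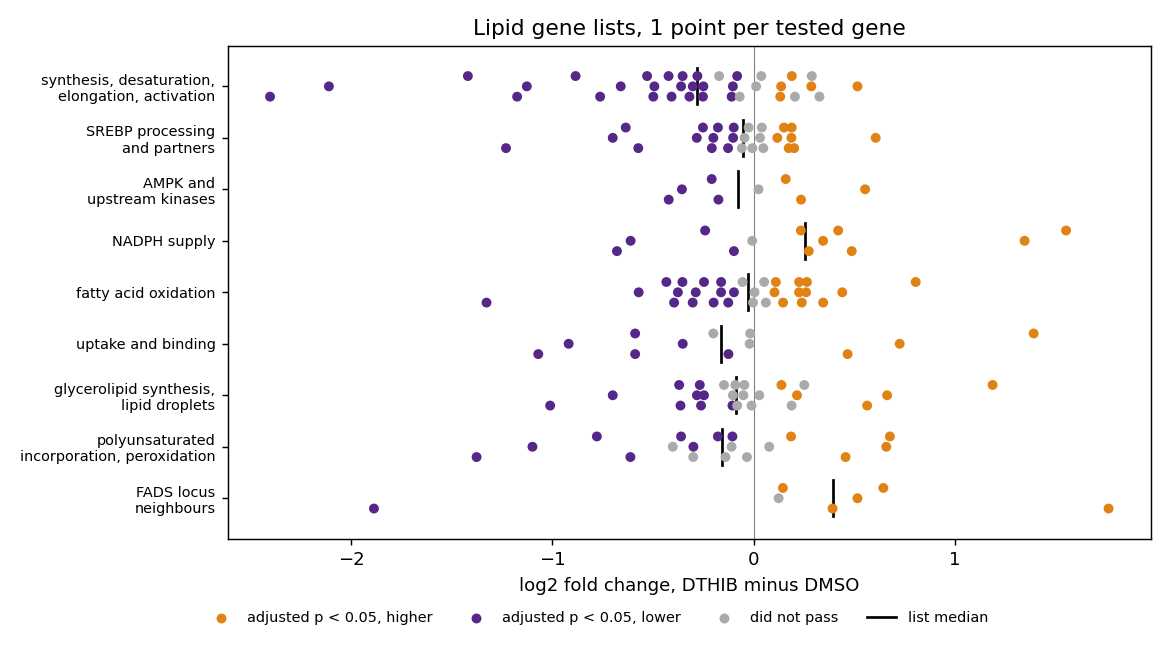
Log2 fold change, DTHIB minus DMSO (x axis), of each tested gene in 9 lipid gene lists, with orange and purple points for genes that passed as higher and lower, grey for the rest, and a black bar at each list's median. The synthesis list has its median at -0.28, and the NADPH list at 0.25.

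Among 11648 genes with a symbol and a mean of at least 100 normalized counts, those whose log2 values, centred on the DMSO mean, lay closest to FADS2 over the 8 libraries were KPNA2, CDT1 and CHEK1, with root mean square differences of 0.034, 0.038 and 0.044. Their log2 fold changes were -1.41, -1.40 and -1.41. Closest to FADS1 were CDC25A, TMPO and SMC4, with differences of 0.028, 0.030 and 0.037 and log2 fold changes of -1.18, -1.15 and -1.15. Since DTHIB values centred on the DMSO mean enter the difference, similar fold changes follow from how these genes were picked. They are not a separate result, and shared control with FADS2 or FADS1 was not tested.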

How the data were processed

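Per the submitters' processing notes, the build was GRCh38 and the tools included the aligner HISAT2 (2.1.0), the counter featureCounts (1.6.3) and DESeq2 (2.11.40.2). Trimmomatic (0.36.5) and StringTie (1.3.4) are named as well, with no order or settings. The signal the authors deposited was, by its name, a DESeq2-normalized count per gene and library. Every value was a whole multiple of its column's smallest one (tolerance 0.01). The authors also deposited per gene a log2 fold change, its standard error and Wald statistic (both taken as a score), a p-value and an adjusted p-value, identified by their place in a table with no header line. Its fold changes had the sign of DTHIB over DMSO for all 10 genes.

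For the tests, 1 was added to each normalized count before taking log2, and limma (3.58.1, R 4.3.3; expression trend, no covariates, two-sided) was run over 17194 genes with a mean of at least 10. Fold changes on this scale understate the change of low genes. Ratios between genes were tested by exact permutation of the 8 libraries. All 10 genes passed the filter. GENCODE 29 supplied positions, for 58611 of 58884 identifiers, and exon lengths. With the smallest step of each column taken as 1 read, within-group pairs of libraries had chi-square statistics per gene of 2.39 to 5.21. That is above the level of sampling noise if the step is right. The model was also run on simulated counts in which far fewer genes changed than were called here. That run does not vouch for the calls in these data.

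The genes and lists were chosen with earlier results of these data known. Named were the 10 genes, the FADS neighbours, the second gene of each ratio, up to 4 genes per list with the smallest adjusted p, and the 3 nearest profiles of 2 genes. A further 24 were chosen after their values were seen. Some genes that these choices cover are not reported here.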

Additional observations from a re-analysis of the deposited data

Results flagged for a closer look

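A library far from the other 3 of its group was found in 8 of 150 groups of 4 examined, and chance flags about 1 in 20 groups. In DTHIB replicate 3, SCD had 20354 normalized counts, against 16639 to 16966 in the other DTHIB libraries, and SREBF1 had 12590, against 10611 to 10848. In DTHIB replicate 1, ELOVL1 had 4687, against 4430 to 4449 in the others. Among DMSO libraries, ACOX3 had 416 in replicate 3 (354 to 361 in the others), CPT1B had 68.0 in replicate 1 (40.1 to 44.0), ACSL4 had 465 in replicate 2 (531 to 542 in the others), ALOX15 had 7564 in replicate 1 (7871 to 7907), and FEN1 had 4596 in replicate 4 (4867 to 4902).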

How the results depend on the processing

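The 7 falls among the 10 genes were kept with pseudocounts of 0.5 and 5, no filter, a mean of at least 50, TMM, quantile normalization, the replicate block and each library left out, with log2 fold changes of -1.48 to -1.39 for FADS2, -1.21 to -1.11 for FADS1 and -0.39 to -0.25 for FASN. Under quantile normalization 1 of the 10 genes was higher, and 11 SREBP genes rose. With a mean of at least 50, 5 genes of the polyunsaturated list fell; fewer genes were then tested. No other list or total count of calls moved by over 1.5 times. Leaving out genes with transcripts placed outside the primary assembly, an alternative added after seeing the data, moved no list count by that much either.

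Same-numbered DTHIB and DMSO libraries did not deviate together (correlations of -0.07 to 0.014), so the replicate numbers were not taken as pairs. With them as a block, the ratios of FADS2 to FADS1 (-0.24), SCD to FASN (-0.34), ELOVL6 to ELOVL5 (-0.92) and SREBF1 to SREBF2 (-0.76) each had an adjusted p of 0.1875, since 4 pairs allow no exact p below 0.125. In the gene fits the block ended the calls of HSD17B12 and PLIN1 and of no other named gene. With ACLY for ACACA the FASN ratio difference was -0.24. Count-model tests on recovered reads were not run, because recovery could not be established for 3 columns whose step is close to 1. The chi-square statistics between libraries did use the implied reads of all columns. Depth limits the low genes most: THRSP, ACSL5 and ELOVL3 have means near the filter of 10.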
